A study of Mus musculus with 8 samples.

Results

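The MHC class I antigen presentation genes are the genes through which a cell displays peptides from its own cytosol at its surface. The 10 genes described here are classical heavy chains (H2-K1 and H2-D1), the light chain B2m, the peptide transporter subunits Tap1 and Tap2, the loading factor Tapbp, the inducible proteasome subunits Psmb8, Psmb9 and Psmb10, and the transcriptional regulator Nlrc5. They were found by symbol among the 24346 genes listed, all 10 were present, and all 10 were among the 18862 genes above 0 in at least 1 library. The set was chosen on values measured in these same libraries, including the contrast of 3D with 2D cultures, so the members' differences between the cultures are given as a description, without a test. Adipose-derived stem cells (ADSCs), mesenchymal cells that grow out of digested fat, came from the gonadal adipose tissue of adult male wild-type BALB/c mice. A set of 4 libraries came from conventional 2D cultures (mice 2, 3, 4 and 5) and another set of 4 from 3D organotypic cultures, in which the cells grow as organoids within Matrigel (mice 1, 4, 5 and 7). Each library was 1 culture of cells from 1 mouse, and 2 animals, mice 4 and 5, are represented in both cultures. The study tested several Wnt3a- and R-Spondin1-conditioned media for the 3D culture, and which of them the sequenced organoids had is not given in the sources used here, so the matrix and the medium cannot be told apart. The study also passaged its 3D cultures many times and does not state the passage of the sequenced ones. A difference in passage between the cultures can therefore not be told apart from these either.

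Proteasomes cut cytosolic proteins into peptides, and interferon replaces the standard catalytic subunits with the inducible ones to form the immunoproteasome. The TAP1 and TAP2 subunits carry these peptides into the endoplasmic reticulum, where tapasin (encoded by Tapbp), calreticulin and ERp57 hold an empty heavy chain with beta-2-microglobulin until a peptide is bound. NLRC5 is the transactivator that drives this gene set through a compound promoter element bound by RFX, CREB/ATF and NF-Y factors, and interferon and NF-kappaB signals add to it. In mesenchymal cells the pathway is known for low to moderate basal expression that interferon raises.

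Values are FPKM (fragments per kilobase of transcript, scaled to the mapped fragments of the library), quantile normalized across the libraries unless they are called deposited. A log2 fold change is the fitted difference of 3D minus 2D on the log2(normalized FPKM + 1) scale, with its standard error (SE), which understates changes of low genes. The estimated depth was between 14.5 M and 17.3 M fragments per library. The 3D library of mouse 1 stood apart from the other 3D libraries, and its label ends in 13 where theirs end in 3D, without saying what this marks. It held 50.3 deposited FPKM of Ly6a, which encodes Sca-1, against 1627 to 2607 in the other 3D libraries, so that results are given with and without it. Of 10 stromal markers, 8 were at or below 1 FPKM in all 3D libraries, and the summed level of 9 epithelial markers was 3.00 to 658 FPKM in 2D and 1927 to 2385 FPKM in 3D. The mesenchymal label of the 3D cultures was therefore not borne out by most of these markers. Of the stromal ones, 8 passed an adjusted p of 0.05 as lower in 3D and 1 as higher in the limma fit (9 and 0 on deposited values), beside 20.3% and 21.2% of all genes. Ly6a, given above, is on the stromal list, and the study found the Sca-1 protein comparable in both cultures by flow cytometry. The summed level of 14 leukocyte markers was 1.10 to 4.90 FPKM in 2D and 7.09 to 38.6 FPKM in 3D, lowest in 3D mouse 1. In 3D this sum came mainly from Cd68 and Csf1r, while Ptprc, the pan-leukocyte antigen CD45, did not exceed 0.0788 FPKM and 9 of the 14 were at 0 in all 3D libraries. The 5 endothelial markers summed to at most 6.46 FPKM in 2D and 0.204 FPKM in 3D. In bulk RNA, more cells that express a gene and more RNA per cell cannot be told apart, and the part of cell composition in the values below was not tested.

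Of the 10 genes, 7 lie on chromosome 17, in or beside the major histocompatibility complex (coordinates are RefSeq's on GRCm38.p6). In order they are Tapbp (chr17:33919478-33929290, plus strand), H2-K1 (chr17:33996012-34000619, minus strand), Psmb9 (chr17:34182030-34187330, minus strand), Tap1 (chr17:34187556-34197225, plus strand), Psmb8 (chr17:34198195-34201454, plus strand), Tap2 (chr17:34204479-34216321, plus strand) and H2-D1 (chr17:35263094-35267497, plus strand). The run from Psmb9 to Tap2 covers 34292 bases, and Psmb9 and Tap1 start 225 bases apart in opposite directions. B2m (chr2:122147687-122153082, plus strand), Nlrc5 (chr8:94434335-94527272, plus strand) and Psmb10 (chr8:105935728-105938392, minus strand) lie elsewhere.

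The promoters of the heavy and light chains are shown because the compound element that NLRC5 uses lies there in textbook accounts, and because these were the most abundant members in 3D mice 4, 5 and 7. RefSeq promoters on GRCm38.p6 were at hand for 8 of the 10 genes, not for Tap2 and Nlrc5, and the 250 bases before each start were searched on both strands for 5 motifs. For H2-K1 the start used is not the outer end of the gene interval given above. Its window (chr17:34000348-34000597) therefore lies within that interval, and whether it overlaps exons was not examined. The letters TGACG (the core of a cAMP response element, here CRE-like) were found in 5 of the 8, H2-K1, H2-D1, B2m, Tap1 and Psmb9, against 17.8% of 32851 promoters. CCAAT, the Y box that NF-Y binds, was found in 6 of the 8, against 33.8%. After the member promoters had been seen, it was noticed that H2-K1, H2-D1 and B2m each hold TGACG followed by ATTGG, the reverse complement of CCAAT, with 20 bases between them, as in these lines, where capitals mark the matched letters and sequences read from 5′ to 3′.
H2-K1 (chr17:34000359-34000388, minus strand): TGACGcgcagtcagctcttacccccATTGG
H2-D1 (chr17:35262993-35263022, plus strand): TGACGcgctggcaggtctcactatcATTGG
B2m (chr2:122147609-122147638, plus strand): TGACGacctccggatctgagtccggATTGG
H2-K1 and H2-D1 shared 23 of these 30 bases, while B2m shared 13 with H2-K1 and 12 with H2-D1. This spaced pair was present in 30 of the 32851 promoters (0.0913%), which belong to 26 genes, among them H2-M3, a nonclassical heavy chain whose fitted log2 fold change was -0.09 (adjusted p = 0.851).

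The NF-kappaB motif GGGNNTTCC was found before H2-K1 and H2-D1 only among the 8, against 4.98% of all promoters, in stretches that shared 28 of 29 bases.
H2-K1 (chr17:34000440-34000468, minus strand): gcccagggctGGGGATTCCccatctccac
H2-D1 (chr17:35262913-35262941, plus strand): gcccagggctGGGGATTCCccatctcctc
The core of the interferon-stimulated response element, GAAANNGAA (ISRE core), was found before B2m, against 7.13% of promoters, and the interferon-gamma activated site TTCNNNGAA (GAS) before Psmb8, against 7.02%. Both motifs end in GAA, so matches can overlap, but no base was shared between matches of different motifs in these promoters.
Psmb8 (chr17:34198088-34198116, plus strand): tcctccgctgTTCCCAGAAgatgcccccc
B2m (chr2:122147437-122147685, plus strand): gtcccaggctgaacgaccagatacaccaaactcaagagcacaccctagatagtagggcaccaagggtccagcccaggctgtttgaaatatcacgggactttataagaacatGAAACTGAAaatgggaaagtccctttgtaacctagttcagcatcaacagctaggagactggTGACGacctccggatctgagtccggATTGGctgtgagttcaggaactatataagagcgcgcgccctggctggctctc
The B2m line is the stretch of its window outside annotated exons of GENCODE M21, and its capitals mark in turn the ISRE core, the CRE-like match and the reversed Y box. Tap1 and Psmb9 share most of their windows and with them the same CRE-like match and Y box. Tapbp held 2 Y boxes and Psmb10 held no match. A match describes these letters alone, and no binding was measured.

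**Figure D1:**
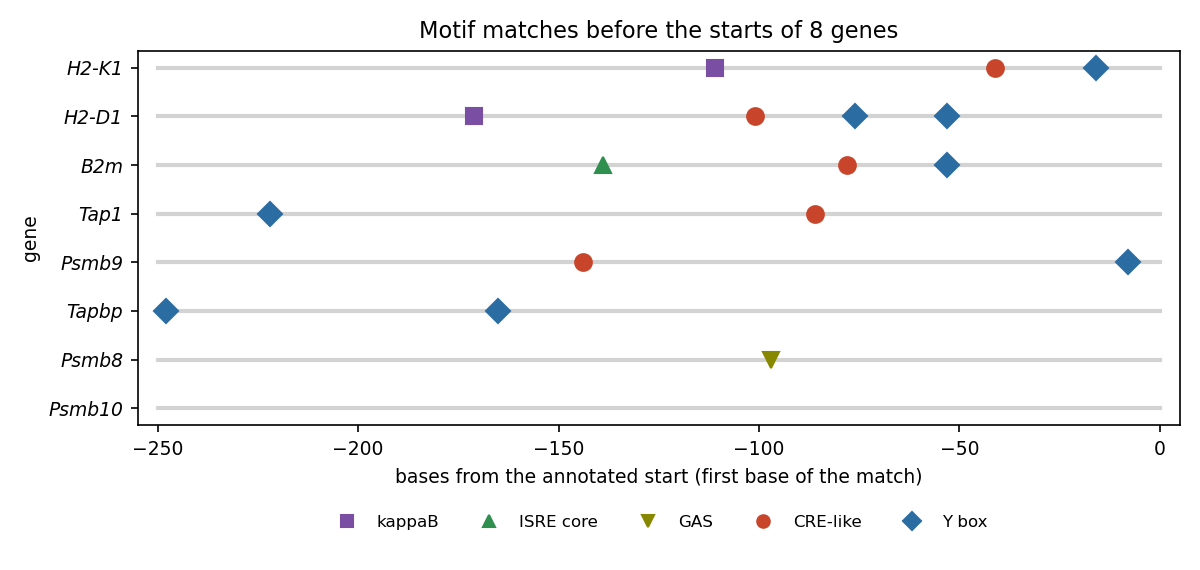
Positions of matches to the 5 motifs in the 250 bases before the starts of the 8 genes with a RefSeq promoter, in bases from the start, with 1 symbol per match. The CRE-like match and the nearest Y box downstream of it keep the same spacing in H2-K1, H2-D1 and B2m, while Psmb10 has no match.

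Classical heavy chains present peptides to CD8 T cells, and the members H2-K1 and H2-D1 both stood far higher in 3 of the 4 3D libraries. H2-L, which is not a member, is given with the further heavy chains below. H2-K1 was at 20.2, 25.0, 25.7 and 18.8 FPKM in 2D mice 2, 3, 4 and 5, and at 47.6, 1099.9, 1005 and 1266 FPKM in 3D mice 1, 4, 5 and 7. No 3D library overlapped the 2D range, but mouse 1 lay nearer to it than to the other 3D libraries. The means were 22.4 ± 3.42 FPKM in 2D and 855 ± 549 FPKM in 3D (SD, n = 4 each), and the log2 fold change was 4.46 (SE 1.01), or 5.62 (SE 0.143) without 3D mouse 1. H2-D1 was at 31.8, 39.5, 41.5 and 40.0 FPKM in 2D and at 95.7, 932, 787 and 996 FPKM in 3D. Its cultures did not overlap either, and its log2 fold change was 3.73 (SE 0.721), or 4.54 (SE 0.129) without 3D mouse 1. In the 3 remaining 3D libraries, H2-K1 averaged 50.1 times and H2-D1 23.7 times its 2D mean. These 2 levels are uncertain, since the longest transcripts of H2-D1 and H2-K1 are 90.8% identical over 1580 aligned bases. BALB/c mice also carry the H-2d haplotype while the reference genome comes from C57BL/6, and its effect on the mapping of these polymorphic genes was not tested.

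B2m, the invariant light chain that every class I molecule needs to reach the surface, was the most abundant member in every 2D library. It was at 136, 215, 239 and 156 FPKM in 2D and at 190, 1288, 1040 and 1668 FPKM in 3D, so that 3D mouse 1 lay within the 2D range and the others well above it. The log2 fold change was 2.15 (SE 0.652), or 2.84 (SE 0.255) without 3D mouse 1. On the deposited scale it was 1.67 (SE 0.678), and 3D mouse 1, at 151 FPKM, lay below every 2D library, of which mouse 2 was lowest at 179 FPKM.

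The peptide transporter subunits differed in size. Tap1 was at 3.03, 9.86, 8.18 and 4.99 FPKM in 2D and at 10.12, 79.5, 45.9 and 52.9 FPKM in 3D. The 3D library of mouse 1 exceeded the highest 2D library, mouse 3, by little. Its log2 fold change was 2.47 (SE 0.623), or 3.12 (SE 0.380) without 3D mouse 1. Tap2, whose product pairs with TAP1, was at 4.63, 5.61, 5.82 and 4.11 FPKM in 2D and at 7.18, 16.2, 19.95 and 24.4 FPKM in 3D, without overlap. Its log2 fold change of 1.46 (SE 0.338) was the smallest of the 9 positive ones, and was 1.83 (SE 0.179) without 3D mouse 1. Tapbp, encoding tapasin, which bridges the transporter and the empty heavy chain, was at 18.0, 46.0, 26.1 and 27.4 FPKM in 2D and at 56.0, 150.1, 145 and 168 FPKM in 3D. The cultures did not overlap, and the log2 fold change was 2.07 (SE 0.403), or 2.46 (SE 0.287) without 3D mouse 1. On deposited values they did overlap, with 3D mouse 1 at 48.1 FPKM and 2D mouse 3 at 49.4 FPKM. The log2 fold change of Tapbp there was 1.67 (SE 0.386).

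The inducible proteasome subunits did not behave alike. Psmb8 (the chymotrypsin-like subunit LMP7) was at 1.28, 5.09, 1.82 and 0.802 FPKM in 2D and at 4.10, 64.2, 38.9 and 68.4 FPKM in 3D. Mouse 1 in 3D lay within the 2D range, but just above it on deposited values (4.772 FPKM against 4.769 in 2D mouse 3). The log2 fold change was 3.42 (SE 0.856), or 4.35 (SE 0.442) without 3D mouse 1. Psmb9 (LMP2) was listed at 0 in 2D mouse 2 and was at 0.434, 0.450 and 0.156 FPKM in the other 2D libraries, against 4.63, 29.3, 10.8 and 18.3 FPKM in 3D. The cultures did not overlap. The log2 fold change was 3.495 (SE 0.487), and 5.46 with a pseudocount of 0.1 in place of 1. Psmb10 (MECL-1), the remaining inducible subunit, was at 12.9, 13.6, 8.87 and 11.99 FPKM in 2D and at 3.82, 10.3, 10.3 and 16.1 FPKM in 3D. The cultures overlapped, and its log2 fold change was -0.33 (SE 0.364), or 0.03 (SE 0.211) without 3D mouse 1. It was the most abundant of the inducible subunits in every 2D library and the least abundant in every 3D library.

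Each inducible subunit takes the place of 1 standard subunit in the assembled proteasome, and a ratio of deposited FPKM within a library cancels scaling between libraries. Psmb8 amounted to 0.439%, 3.37%, 1.19% and 0.300% of Psmb5 in 2D and to 4.48%, 52.8%, 30.5% and 44.9% in 3D. Psmb9 amounted to 0%, 0.372%, 0.445% and 0.0960% of Psmb6 in 2D and to 4.24%, 32.4%, 11.9% and 16.4% in 3D. Neither ratio overlapped between the cultures on deposited values, and in 3D mouse 1 both were far under those of the other 3D libraries. On normalized values the Psmb8 ratio did overlap. There, 3D mouse 1 had 4.10 FPKM of Psmb8 beside 132 of Psmb5, and 2D mouse 3 had 5.09 beside 128. Psmb10 amounted to 5.50%, 7.92%, 4.24% and 5.71% of Psmb7 in 2D and to 4.16%, 8.52%, 11.4% and 14.8% in 3D, with 3D mouse 1 below every 2D library. The mean ratios differed by 31.8, 16.0 and 3.88 percentage points. On normalized values the last of these was 0.473 points, so that the Psmb10 ratio depended on the scaling.

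**Figure D2:**
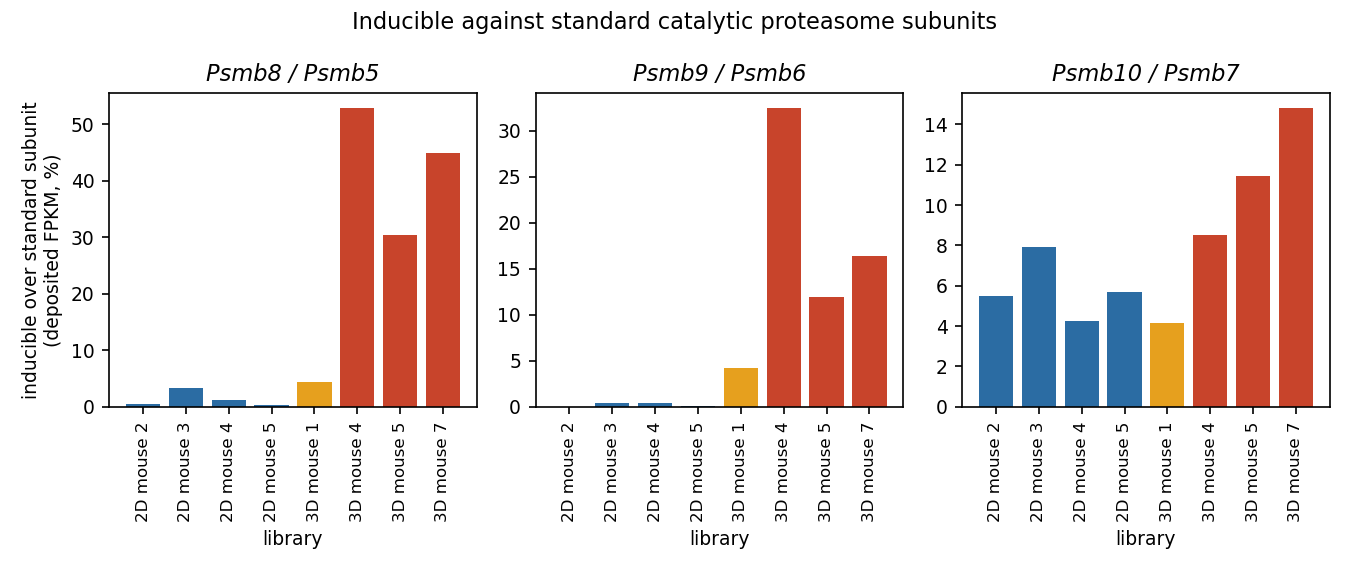
Ratio of each inducible catalytic proteasome subunit to the standard subunit it replaces, in percent of deposited FPKM, with 1 bar per library (blue, 2D, orange, 3D mouse 1, red, other 3D libraries) and a separate vertical scale in each panel. Psmb8 over Psmb5 reached 30.5% to 52.8% in the 3D libraries of mice 4, 5 and 7, while Psmb10 over Psmb7 stayed between 4.16% and 14.8% in all libraries.

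Nlrc5, which has no DNA-binding domain of its own and acts on promoters through other factors, was close to the detection floor in 2D. Its deposited values there were 0.0253, 0.0656, 0.0726 and 0.0170 FPKM in mice 2, 3, 4 and 5, where 3 fragments correspond to up to 0.0242 FPKM, so that mouse 5 lay under that floor. Normalized, it was at 0.042, 0.072, 0.058 and 0.033 FPKM in 2D. In 3D it was at 0.0887, 9.47, 6.15 and 8.68 FPKM. The 3D library of mouse 1 thus lay near the 2D libraries, and no fold is given against such low values. On the log2(FPKM + 1) scale the difference was 2.33 (SE 0.687), or 3.09 (SE 0.161) without 3D mouse 1, and with a pseudocount of 0.1 it was 4.39.

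Across the members, 9 of 10 passed the adjusted p of 0.05 as higher in 3D and 0 as lower, beside 21.2% and 20.3% of all genes. Since the set was chosen on this contrast, nothing is read from that count. In every fit with 1 library left out 7 members passed. The share of all genes that did so was not computed, and nothing is read from this count. B2m lost the call in 6 of these 8 fits and Nlrc5 in 7, but neither did without 3D mouse 1. With mouse as a block 0 members and 0 of all genes passed. In 7 of 10 every 3D library exceeded every 2D library (21.6% of all genes, with 20.9% in the opposite direction). Without 3D mouse 1 this held for 9 of 10 (25.4% of all genes), and 9 of 10 passed as higher and 0 as lower, beside 21.7% and 18.7%. The median log2 fold change of the members was 2.40, against 0.00 over all genes, and 3.10 without 3D mouse 1. On deposited values 8 of 10 passed as higher, all but B2m and Psmb10, beside 22.7% of all genes, and nothing is read from that count either. Within the 2 mice that gave both cultures, the 3D level of the members other than Psmb9, Psmb10 and Nlrc5 was between 2.78 (Tap2) and 42.8 (H2-K1) times the 2D level in mouse 4 and between 4.86 (Tap2) and 53.4 (H2-K1) times in mouse 5. Psmb9 and Nlrc5 rested on few fragments in 2D. In mouse 5, H2-D1 stood at 19.7 times and B2m at 6.67 times, but at 12.96 and 3.90 times on deposited values. Psmb10 stood at 1.16 times in mouse 4 and 0.857 times in mouse 5.

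**Figure D3:**
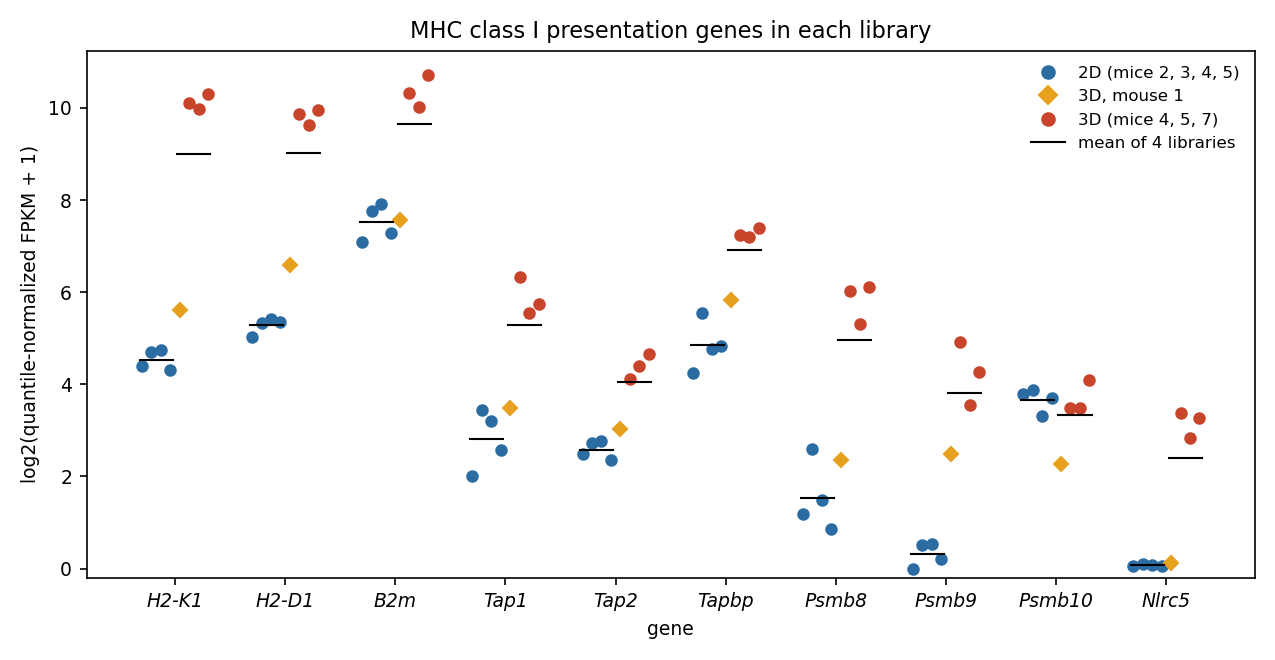
Level of each member in each library, as log2(quantile-normalized FPKM + 1), with 2D libraries in blue, 3D mouse 1 as an orange diamond, other 3D libraries in red and black lines for the mean of the 4 libraries of a culture. For every member except Psmb10 the 3D libraries of mice 4, 5 and 7 lie above all 2D libraries, and 3D mouse 1 is the lowest 3D library throughout.

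The 3D library of mouse 1 was the lowest 3D library for all 10 members, which was so for 28.8% of all genes. On normalized values it lay within the 2D range for B2m and Psmb8, and below that range for Psmb10. On deposited values it lay within the 2D range for Tapbp, below it for B2m and Psmb10, and just above it for Psmb8. The other 3D libraries averaged 23.6 times its level for H2-K1, 9.46 times for H2-D1, 7.02 times for B2m and 13.9 times for Psmb8. The gap was smaller for Tapbp, at 2.76 times, and for Tap2, at 2.82 times. Leaving this library out raised the log2 fold change of each of the 10, which largely follows from its being the lowest 3D library, although the other libraries were normalized anew.

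**Figure D4:**
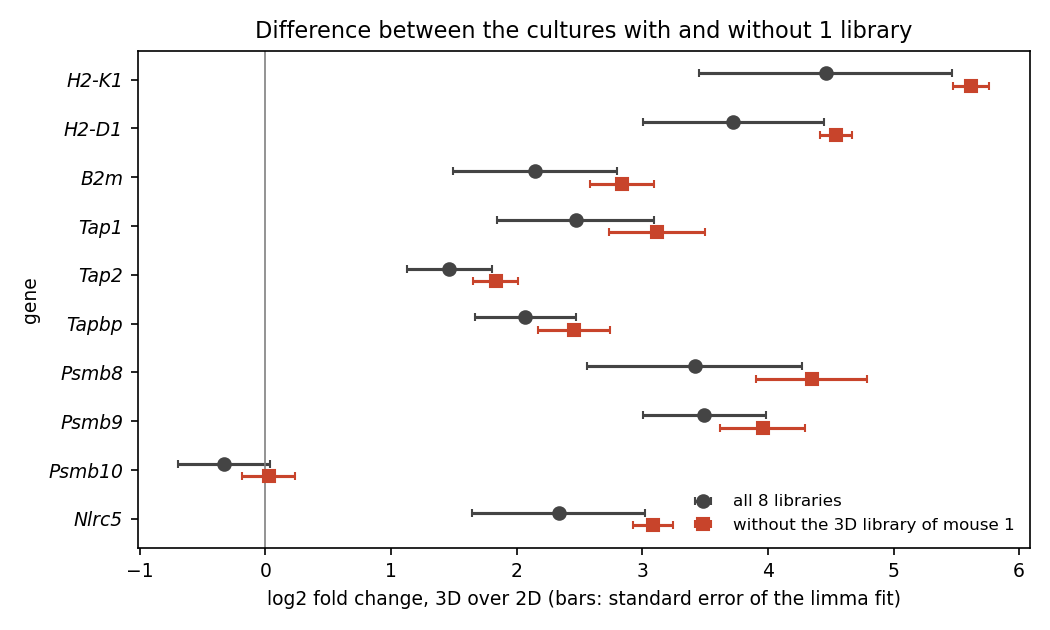
Fitted log2 fold change of 3D over 2D for each member, with all 8 libraries (grey circles) and without the 3D library of mouse 1 (red squares), where bars are the standard error of the fit. Without that library, the lowest 3D library for every member, each estimate lies further to the right, from 0.03 for Psmb10 to 5.62 for H2-K1.

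Genes were ranked by how closely their levels followed the members within the cultures. Likeness was Pearson's correlation between a gene and the mean of the members, both as deviations of log2(normalized FPKM + 1) from their culture's mean, over 8 libraries and 12573 genes averaging 1 FPKM or more. The highest were Ddx60 (r = 0.996), Gbp2 (r = 0.995), Ifi44 (r = 0.994), Mx2 (r = 0.994) and Lgals9 (r = 0.994), with Spearman's rho between 0.952 and 0.976. All 5 shared the gap between 3D mouse 1 and the other 3D libraries, for example in the antiviral helicase gene Ddx60 with 0.573 FPKM there against 49.4, 23.99 and 53.3 FPKM. Without that library the 5 highest over 7 libraries were Zbtb24 (r = 0.987), Fbxo36, Chmp1a, Usp18 (r = 0.980) and Rabep1, among which Usp18 is a negative regulator of interferon signaling. These are descriptions over few libraries that share cultures and mice.

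The further genes of the pathway were tested in the same limma fit with Benjamini-Hochberg adjustment over 18862 genes, as 105 genes in 8 lists. Of the 100 above 0 in some library, 30 rose and 15 fell in 3D (30 and 12 without 3D mouse 1), beside 21.2% and 20.3% of all genes, with a median log2 fold change of 0.12. On deposited values 28 rose and 25 fell. Quantile normalization raised 3D relative to 2D by a median of 0.45 on the log2 scale for genes of 50 to 200 FPKM and by 0.52 for genes of 200 to 1000 FPKM, which touches the abundant chaperones, proteasome subunits and members. On deposited values the log2 fold changes of the members H2-K1, H2-D1, B2m and Tapbp were smaller, at 4.21, 3.37, 1.67 and 1.67.

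Transcriptional regulators of class I genes rose in 8 of 16 cases and fell in 0 (9 and 0 without 3D mouse 1). Irf1, an interferon-induced factor that binds class I promoters, was at 12.8, 16.1, 11.6 and 12.9 FPKM in 2D and at 20.6, 36.9, 25.4 and 34.6 FPKM in 3D (log2 fold change 1.05, SE 0.196, adjusted p = 0.00386). Nfkb1 rose by 1.33 (adjusted p = 0.000398) and Relb, a subunit of the noncanonical NF-kappaB pathway, by 1.09 (adjusted p = 0.00473) on the log2 scale. For both, every 3D library including mouse 1 lay above every 2D library. Rfx5, the DNA-binding part of the RFX complex through which NLRC5 acts, rose by 0.74 (adjusted p = 0.00388), Irf2 by 0.72 (adjusted p = 0.00175) and the NF-Y subunit Nfya by 0.38 (adjusted p = 0.0250). For Stat2 and Irf9, which act in type I interferon signaling, 3D mouse 1 lay within the 2D range. Stat2 rose by 2.42 (adjusted p = 0.0439) and Irf9 by 1.84 (adjusted p = 0.0276), and both calls were lost when any of 6 libraries was left out, 2D mouse 2, 4 or 5 or 3D mouse 4, 5 or 7, with adjusted p up to 0.106 and 0.0718. Without 3D mouse 1 their adjusted p was 0.00141 and 0.00496. The call of Nfya was lost without 2D mouse 2, 3 or 4 or 3D mouse 1, 4 or 5, with adjusted p up to 0.0690.

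Irf8, Rfxank, Rfxap, Creb1, Nfyb, Nfyc and Rela did not pass, with log2 fold changes between -0.33 and 0.67. Irf8 was at 3.46 FPKM in 3D mouse 1 and at most 0.414 FPKM in every other library.

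Among interferons, receptors and their kinases, 3 of 13 measured genes rose and 1 fell, while Ifng and Ifnl3 were at 0 in all libraries. Ifnb1, Ifna4 and Ifnl2 were at most 0.261 FPKM. Ifnlr1, the receptor chain for type III interferon, was at 0.0940, 1.16, 1.02 and 0.0515 FPKM in 2D and at 4.50, 5.57, 6.72 and 5.15 FPKM in 3D, without overlap (log2 fold change 2.10, SE 0.284, adjusted p = 0.000805). Ifngr1 rose by 0.86 (adjusted p = 0.00379) while its partner chain Ifngr2 fell by 0.72 on the log2 scale (adjusted p = 0.00128). Tyk2 rose by 0.45 (adjusted p = 0.0444), a call lost without 2D mouse 2, 4 or 5 or 3D mouse 4, 5 or 7 (adjusted p up to 0.0982). The type I receptor chains Ifnar1 and Ifnar2 had log2 fold changes of 0.23 and -0.20 (adjusted p = 0.293 and 0.289).

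Of 10 peptide loading partners, 3 rose and 3 fell (2 and 5 on deposited values). The chaperones of the loading complex fell: Calr, encoding calreticulin, was at 767, 630.0, 623 and 932 FPKM in 2D and at 421, 326, 369 and 323 FPKM in 3D (log2 fold change -1.02, SE 0.166, adjusted p = 0.00202), and Pdia3, encoding ERp57, fell by 0.62 (adjusted p = 0.00241). Their cultures did not overlap, and their fall was larger on deposited values, at -1.53 and -1.19. Lnpep, an endosomal aminopeptidase, fell by 0.64 (adjusted p = 0.00103). Erap1, the aminopeptidase that trims peptides in the endoplasmic reticulum, rose by 1.09 (adjusted p = 0.00556), and Tapbpl, encoding the tapasin-related editor TAPBPR, by 0.82 (adjusted p = 0.00234). Ganab rose by 0.44 (adjusted p = 0.0178) but had -0.09 on deposited values. Canx, Uggt1, Hspa5 and Bcap31 did not pass, with log2 fold changes of 0.15, -0.05, -0.25 and 0.41, and on deposited values Canx (-0.43, adjusted p = 0.0104) and Hspa5 (-0.80, adjusted p = 0.0103) fell.

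The interferon-inducible PA28 activator subunits of the proteasome rose. Psme1, encoding PA28 alpha, was at 26.6, 50.4, 37.8 and 27.5 FPKM in 2D and at 66.3, 146, 149 and 160 FPKM in 3D, without overlap (log2 fold change 1.81, SE 0.325, adjusted p = 0.00323). Psme2, encoding PA28 beta, rose by 1.06 (adjusted p = 0.0137), with 3D mouse 1 inside the 2D range, and did not pass on deposited values (0.57, adjusted p = 0.0806). Of the other 7 activators and assembly factors Psmg3 fell by 0.45 (adjusted p = 0.0139) and Psme3, Psme4, Pomp, Psmg1, Psmg2 and Psmg4 did not pass.

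The standard catalytic and structural subunits differed by less, and the direction of some depended on the scaling. Psmb5 had a log2 fold change of 0.05 (adjusted p = 0.736), and -0.55 on deposited values (adjusted p = 0.0138). Psmb6 rose by 0.43 (adjusted p = 0.0385) but had -0.14 on deposited values, and its call was lost without 2D mouse 3, 4 or 5 or 3D mouse 1, 5 or 7 (adjusted p up to 0.0943). Psmb7 fell by 0.32 (adjusted p = 0.0227) and by 0.93 on deposited values, and its call was lost without 2D mouse 2 or 4 or 3D mouse 5 or 7 (adjusted p up to 0.0607). Of the 11 other subunits of the 20S core 2 rose and 4 fell. The falls were those of Psma3 (-0.52), Psmb3 (-0.49), Psma7 (-0.46, lost without 2D mouse 3 or 4 or 3D mouse 1, 5 or 7, adjusted p up to 0.0806) and Psma4 (-0.40). Psma1 (0.32) and Psmb4 (0.27) rose, with -0.15 and -0.34 on deposited values, where 0 rose and 9 fell. The call of Psmb4 was lost without 2D mouse 5 or 3D mouse 1 or 7 (adjusted p up to 0.0641).

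Other class I and class I-like heavy chains rose in 11 of 29 cases and fell in 4 (12 and 3 without 3D mouse 1), with H2-M11 at 0 throughout. Among H2-K1, H2-D1, H2-Q4, H2-Q6, H2-Q7 and H2-T23 the longest protein-coding transcripts were 76.7% to 90.8% identical over their aligned bases, with 88.8% between H2-D1 and H2-Q7. The division of reads among them is therefore uncertain. H2-L, H2-Q8 and H2-Q9 had no protein-coding transcript under these symbols in GENCODE M21, and the remaining chains were not compared. How the BALB/c haplotype affects the mapping of any of these heavy chains was not tested either. H2-Q4, of the Q region, was at 5.05, 5.70, 4.24 and 3.89 FPKM in 2D and at 29.4, 119, 74.2 and 108 FPKM in 3D (log2 fold change 3.70, SE 0.413, adjusted p = 0.000312). H2-Q7 and H2-Q8 were listed at 0 in all 2D libraries. In 3D, H2-Q7 was at 0.0394, 133, 29.1 and 42.1 FPKM (adjusted p = 0.0326, lost without any library other than 3D mouse 1, with adjusted p up to 0.0811) and H2-Q8 at 1.00, 78.9, 24.6 and 40.7 FPKM (adjusted p = 0.0116). H2-Q5 was at most 0.130 FPKM in 2D and at 0.862, 43.1, 18.4 and 30.7 FPKM in 3D (adjusted p = 0.0121). In H2-Q4, H2-Q5, H2-Q7 and H2-Q8 the lowest 3D library was mouse 1. Other called chains, named here after their values were seen, did not share this order. H2-Q2, listed at 0 in all 2D libraries, was at 14.3, 8.95, 3.97 and 2.31 FPKM in 3D mice 1, 4, 5 and 7 (adjusted p = 0.00181), highest in mouse 1. H2-Q1 was at most 0.0735 FPKM in 2D and at 0.945, 0.463, 0.507 and 0.105 FPKM in 3D, also highest in mouse 1 (adjusted p = 0.0239, lost without 2D mouse 2, 3 or 5 or 3D mouse 4 or 5, adjusted p up to 0.0558). H2-K2 was at most 0.171 FPKM in 2D and at 3.71, 4.01, 4.01 and 2.83 FPKM in 3D, lowest in mouse 7 (adjusted p = 1.46e-05).

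Further heavy chains were picked for mention after their values had been seen. H2-L was at 0, 0.961, 0.678 and 0 FPKM in 2D and at 0.997, 28.7, 28.9 and 45.4 FPKM in 3D (log2 fold change 3.65, SE 0.952, adjusted p = 0.0171). Its level in 3D mouse 1 was close to that of the highest 2D library. H2-T23, which encodes Qa-1, a ligand of the inhibitory receptor CD94/NKG2A on natural killer cells, was at 14.6, 30.6, 23.1 and 20.8 FPKM in 2D and at 59.0, 238, 216 and 380.2 FPKM in 3D (log2 fold change 3.04, SE 0.541, adjusted p = 0.00307). H2-T9 did not pass, at 15.8 to 25.9 FPKM in 2D and at 2.05, 99.5, 42.4 and 78.6 FPKM in 3D (adjusted p = 0.675, and 0.00450 without 3D mouse 1). Class I-like chains that pair with B2m but serve other functions were among those that fell. Fcgrt, the heavy chain of the neonatal Fc receptor, was at 21.9, 30.5, 27.8 and 23.7 FPKM in 2D and at 2.04, 0.550, 1.77 and 1.53 FPKM in 3D (log2 fold change -3.48, SE 0.231, adjusted p = 2.42e-05). Cd1d1, which presents lipids, fell by 1.71 on the log2 scale (adjusted p = 0.00234), and H2-M3 and Mr1 did not pass.

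Class II presentation is driven by Ciita in professional antigen-presenting cells. Ciita was at most 0.297 FPKM in any library, and H2-Aa and H2-Ob were at 0 in all. Of 9 measured class II genes 0 rose and 1 fell, H2-Eb1, which was at most 0.206 FPKM in 2D and at 0 in all 3D libraries (adjusted p = 0.0327, lost without 2D mouse 5 or any 3D library, adjusted p up to 0.0754). The invariant chain Cd74 reached 1.25 FPKM. H2-DMb1, of the class II peptide editor, was at 1.46, 3.22, 6.12 and 2.79 FPKM in 2D and at 0.161, 2.47, 3.39 and 4.87 FPKM in 3D (adjusted p = 0.620). Its partner H2-DMa was at 1.12 to 1.25 FPKM in 2D and 0.171 to 2.14 FPKM in 3D (adjusted p = 0.552).

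**Figure D5:**
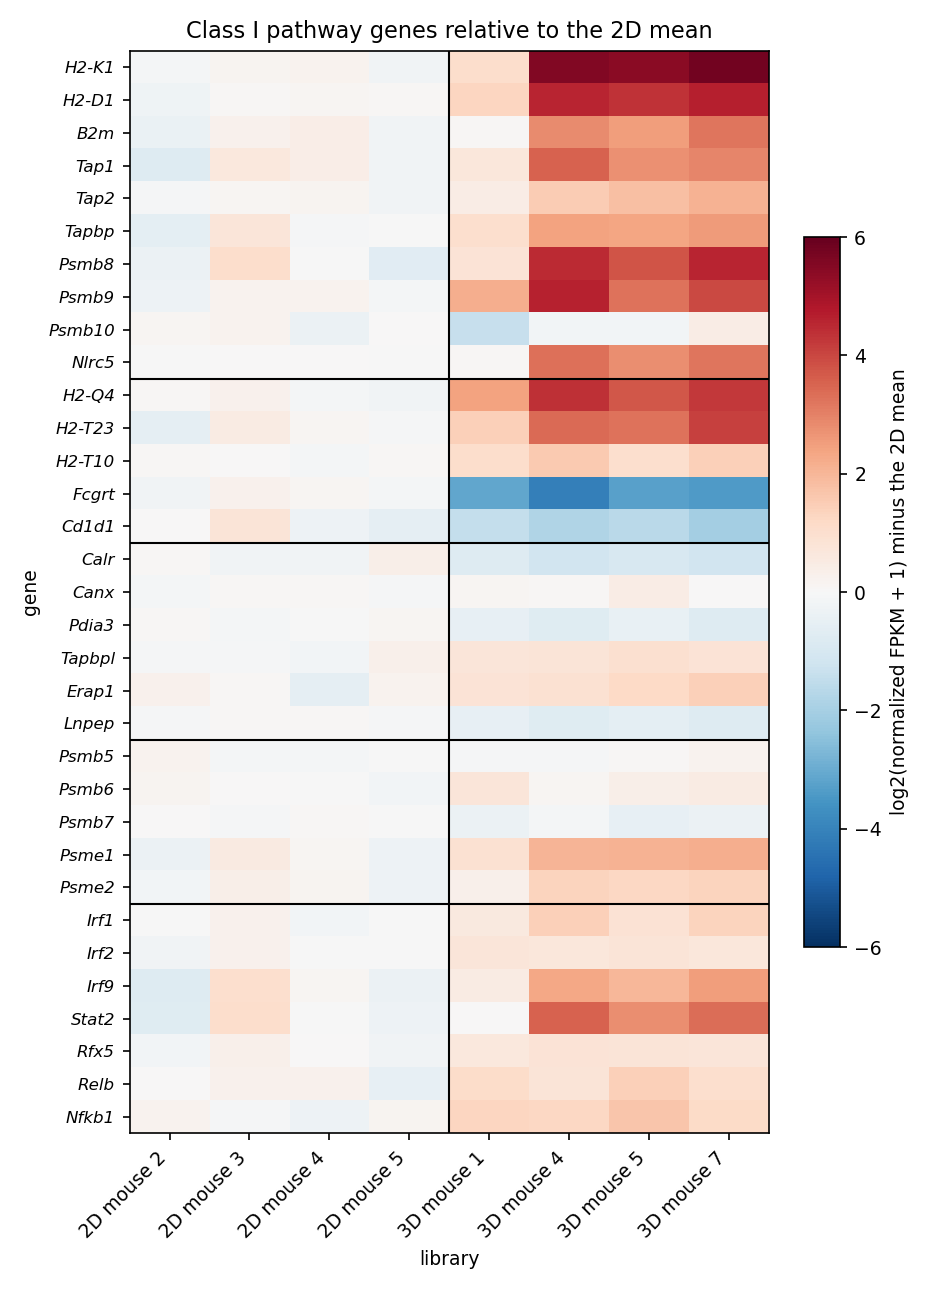
Level of the members (top block) and of selected genes of the other lists (blocks of heavy chains, loading partners, proteasome subunits and activators, and regulators) in each library, as log2(normalized FPKM + 1) minus the gene's 2D mean, from blue (lower) to red (higher). H2-K1, H2-D1, Psmb8, Psmb9, Nlrc5, H2-Q4 and Stat2 are red in 3D mice 4, 5 and 7 and paler in 3D mouse 1, while Fcgrt is blue in every 3D library.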

How the data were processed

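Total RNA of 8 cultures was sequenced as paired-end directional libraries after ribosomal RNA depletion. The authors trimmed the reads, mapped them with TopHat and computed the deposited FPKM values per gene with Cufflinks, and the build named in the submitters' processing notes is mm10. The deposited values differ in their upper quartiles, so the quantile normalization with EdgeR that the study describes is not part of them. Genes at 0 in every library (5484) were left out, the values were quantile normalized, converted to log2 with a pseudocount of 1 and fitted with limma 3.58.1 in R 4.3.3 (empirical Bayes, intensity trend, no covariates), after a test on simulated data, with Benjamini-Hochberg adjustment. The members and lists were chosen with earlier results of these data known, and the members' difference between the cultures gets no test. Named genes are the members, every gene of the loading, catalytic, activator and regulator lists, up to 4 called genes with the largest change of each other list, genes at 0 and the 5 most similar genes. A regulator that this rule covers is not reported here.

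Mice 4 and 5 pair the cultures because both libraries came from the same animal. The deviations of their 2D and 3D libraries from the culture means correlated at -0.0527 and -0.113 over 12583 genes, and blocking on the mouse leaves 1 degree of freedom for the residual. The depth follows from the spacing of low FPKM in 875 single-transcript genes (3000 nt or longer), where 69.9% to 81.2% of values per library lay within 0.15 of a whole multiple, and floors of 3 fragments cover counting error only. Each fit was repeated on deposited values, without the trend, on genes averaging 1 FPKM or more, at a pseudocount of 0.1, blocked by mouse or with mouse as a random term, in mice 4 and 5 alone, and omitting single libraries. The similar genes and the counts of non-overlapping cultures without 3D mouse 1 were added after seeing the data. H2-K1 has more than 1 RefSeq start, and the outermost with a promoter entry was used.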

Additional observations from a re-analysis of the deposited data

Results flagged for a closer look

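In the 3D group, the library of mouse 1 was far below the other 3D libraries for 4 members. The gap to the nearest library divided by the range of the 4 libraries, on the log2(normalized FPKM + 1) scale, was 0.929 for H2-K1, 0.899 for H2-D1, 0.868 for Tapbp and 0.832 for Nlrc5, above Dixon's 95% critical value for 4 samples. In all, 26 sets of 4 values were examined, of which chance alone flags about 1 in 20 where sets are independent. The 4 flags rest on the same library, and H2-K1 and H2-D1 may share reads. They are therefore not separate events, and their number cannot be weighed against that rate. The members were also chosen on values of these same libraries, so the critical value serves only to mark values for a closer look, not as a test.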

How the results depend on the processing

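The values limit what can be said in several ways. Read counts were not used here. Low genes such as Nlrc5 and Psmb9 in 2D rest on few fragments, and similar heavy chains may share reads. With mouse as a block, which leaves 1 residual degree of freedom, 0 of the 4000 higher and 0 of the 3823 lower genes and 0 of the 30 higher and 0 of the 15 lower pathway genes passed (limma), and 5216 of all genes had an unadjusted p below 0.05. With mice 4 and 5 only, 1788 genes were higher and 1432 lower, and among the pathway genes 19 and 2. As deposited, 25 pathway genes were lower, and Ganab (-0.087), Psmb6 (-0.14), Psma1 (-0.15) and Psmb4 (-0.34) changed direction. Psmb10 over Psmb7 differed by 0.473 points on normalized values. The cause was not tested for these.

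With each library left out in turn, 3393 to 4051 genes were higher and 3204 to 3835 lower, with 22 to 30 and 11 to 14 among pathway genes. The members' median log2 fold change was 2.07 to 3.10, and the subunit ratios remained higher in 3D, by 2.19 to 41.4 points. Of the 45 pathway genes called, 32 passed in each of these fits and 13 did not in at least 1.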
